A study of Homo sapiens with 6 samples.

Results

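Wnt signalling genes were examined in NCI-N87 cells, an established gastric carcinoma line, after knockdown of SCAMP1, a vesicle membrane protein. The genes were chosen by name among the protein-coding genes of the deposited expression table: Wnt ligands, Frizzled and LRP receptors, secreted antagonists, R-spondins with their receptors, Naked and Axin genes, and a fixed set of other pathway components and nuclear factors. The rule found 63 genes among the 58735 of the table, of which 34 had a mean of at least 0.5 FPKM (fragments per kilobase of gene, scaled to library size, a level corrected for gene length) and were tested. RNA came from 3 shNC libraries and 3 shScamp1 libraries. Both groups were NCI-N87 cells transduced with lentivirus and selected with puromycin; the labels call shNC the control, which the methods describe as the vector without a hairpin, and shScamp1 the knockdown, made with a single hairpin and kept as a stable population. The labels call the 3 libraries of a group biological replicates, but no source says whether they came from separate transductions, so p-values measure the spread between these libraries only.

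Wnt proteins are lipid-modified secreted ligands that bind Frizzled receptors together with LRP5 or LRP6. In the canonical branch, this halts the destruction complex of Axin, APC and kinases, and β-catenin then reaches the nucleus and activates transcription with TCF and LEF factors. Several genes that β-catenin and TCF switch on, such as AXIN2, NKD1, NOTUM, RNF43 and ZNRF3, encode inhibitors of the pathway, so their transcripts are widely used as a readout of its activity. In the stomach, Wnt signals maintain stem cells of the glands, and the R-spondin receptor LGR5 marks such cells in the antrum.

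SCAMP1 itself had a mean of 12.1 FPKM in shNC and 1.69 FPKM in shScamp1 cells (log2 fold change -2.78, adjusted p = 0.000248). All 9 epithelial and gastric carcinoma markers listed were expressed, with means from 12.1 to 2268 FPKM. Of the 6 fibroblast markers, COL1A2, DCN and LUM had no read, THY1 and COL3A1 had at most 6 reads in a library, and COL1A1 had 64 to 111, with a summed list of 0.554 to 0.695 FPKM in shNC and 0.561 to 0.773 FPKM in shScamp1 libraries. The summed epithelial list was at 5685 to 5973 FPKM in shNC and 9614 to 10592 FPKM in shScamp1 libraries. In it, the shNC and shScamp1 means differed most in FPKM for KRT8 (1534 and 3002), KRT19 (1688 and 2844) and KRT18 (875 and 2000). ERBB2 was at 1235 and 1382 FPKM and EPCAM at 153 and 148 FPKM, while CEACAM6, CEACAM5, CLDN4 and CDH1 were also higher. The leukocyte list was at 0.986 to 1.19 FPKM in shNC and 1.86 to 4.12 FPKM in shScamp1 libraries, of which CD79A made up nearly all. PTPRC, the pan-leukocyte marker, stayed at 0.0282 FPKM or below. The endothelial list of 3 genes was at 0.139 to 0.235 FPKM in shNC and 0.381 to 0.612 FPKM in shScamp1 libraries, with VWF at 24 to 36 and 51 to 82 reads and PECAM1 at no more than 1 read. The part of these shifts in the results was not tested. Libraries held 14311769 to 15988700 reads on genes. The library shScamp1 replicate 2 stood apart, with 9.21% of its reads on mitochondrial genes against 6.09% to 6.78% in the other 5. It was the shScamp1 library farthest from the other 2 in 25 of the 34 genes tested, so the number of genes called is also given without it.

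In shScamp1 cells WNT11, WNT10B, NOTUM, WLS, LGR6, ZNRF3, AXIN2, NKD1, NKD2, SP5 and LEF1 fell, while WNT7B, WNT9A, FZD7 and DKK1 rose. At a Benjamini-Hochberg adjusted p under 0.05 by limma, 11 of the 34 genes were lower and 4 were higher. Among all 15556 genes tested, 14.0% were called (5.17% lower and 8.82% higher). This split moves with scaling, from 63.0% of calls higher to 47.3% when libraries were rescaled to equal totals of reads. Under that rescaling 14 Wnt genes were lower and 4 higher, and 15.5% of all genes were called. In the main fit with an absolute log2 fold change above 1 as well, the threshold the study used for DEGs, 5 Wnt genes were lower (WNT11, NOTUM, SP5, NKD2 and LEF1) and 1 was higher (WNT7B). Both directions together took 3.16% of all genes, with 0.746% lower and 2.42% higher. The median log2 fold change was -0.19 over the 34 genes and -0.02 over all genes tested. The libraries of the groups did not overlap for 24 of the 34 genes, against 41.4% of all genes. The Wnt genes are all protein-coding, and the share called was larger among such genes than among all. A separate fit of protein-coding genes only called 22.8% of its genes, with 12 Wnt genes lower and 6 higher. With the filter raised to 2 FPKM, 20.0% of the genes left were called. Of the 29 Wnt genes then tested, 11 were lower and 5 higher. In bulk RNA, fewer cells with a transcript and less of it per cell cannot be told apart. A permutation test of 3 libraries against 3 cannot give a p below 0.1, so single genes were judged by the fit across all genes.

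Without shScamp1 replicate 2, the same 15 genes were called and 5 more joined them. RNF43 (log2 fold change -0.18), AXIN1 (-0.27), FZD5 (-0.33) and WNT10A (-0.47) were then lower and TCF7 (0.30) higher, with adjusted p from 0.0110 to 0.0426. The share called among all genes also rose without this library, to 27.8%. Leaving out any other library lowered the number of called genes to between 9 and 12, the lowest being 9 without shNC replicate 1 and 9 without shNC replicate 3. The share called among all genes fell in the same fits, to between 5.19% and 11.7%.

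**Figure D1:**
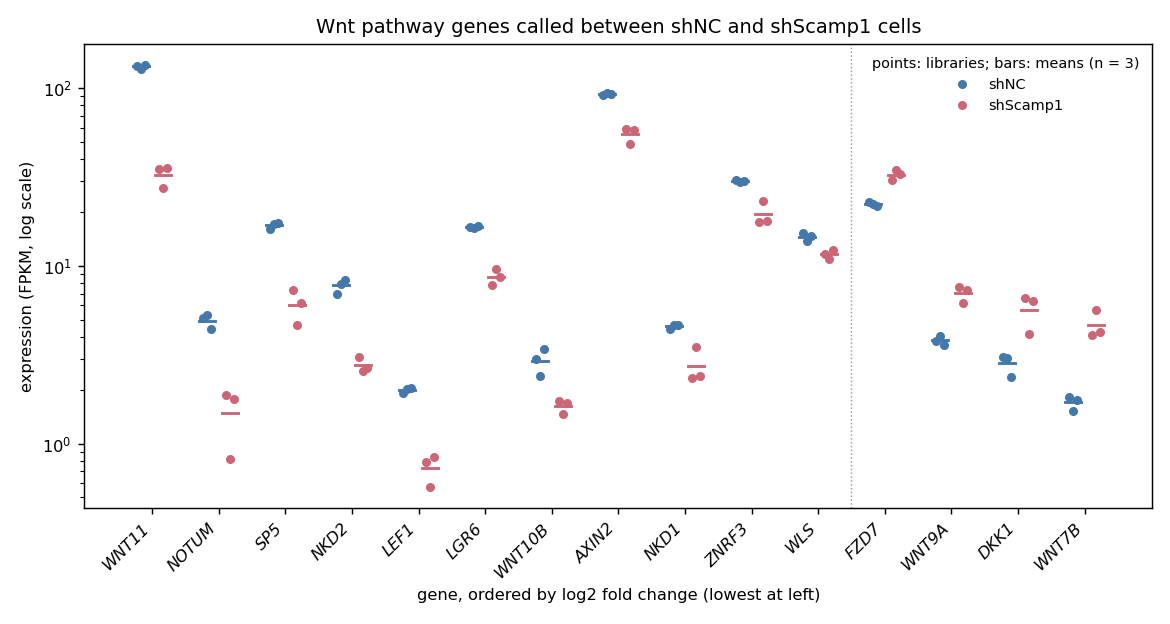
Expression of the 15 called Wnt pathway genes, with the gene on the x axis and FPKM on a logarithmic y axis; each point is a library, each short bar the mean of 3, and the dotted line separates genes that fell from genes that rose. For all 15 genes the points of the groups do not overlap, from WNT11 (132 against 32.6 FPKM) at the left to WNT7B (1.71 against 4.66 FPKM) at the right.

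Among the 19 ligand genes, 7 were tested, of which 2 fell, 2 rose and 3 were not called. WNT11 (ENSG00000085741, chr11:76186325-76210736, GRCh38, reverse strand), a ligand best known for non-canonical signalling in cell movement, was the most abundant ligand transcript in both groups. It was at 133, 129 and 135 FPKM in the shNC libraries and at 35.0, 27.5 and 35.4 FPKM in the shScamp1 libraries. Every shScamp1 library was thus far below every shNC library (log2 fold change -2.02, standard error 0.11, adjusted p = 0.000379). The summed FPKM of all 19 ligand genes was 144 to 151 in shNC and 47.2 to 54.8 in shScamp1 libraries. WNT11 accounted for 89.2% to 89.4% of this sum in shNC libraries and for 58.2% to 64.6% in shScamp1 libraries. The sum of the other 18 ligand genes went the other way, from 15.6 to 15.9 FPKM in shNC to 19.4 to 19.7 FPKM in shScamp1 libraries. The antisense gene AP000785.1 lies inside WNT11 and shares 204 of its exonic bases (8.50%). Its 118, 127 and 142 reads in shNC and 44, 15 and 28 reads in shScamp1 libraries cannot be told apart from WNT11 reads where the genes overlap, because no source states that counting used strand.

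**Figure D2:**
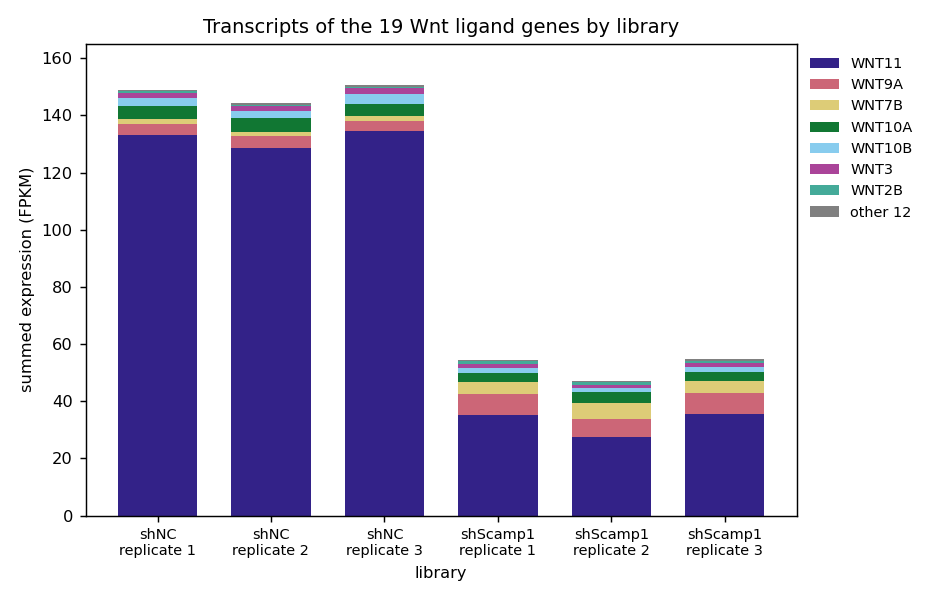
Summed FPKM of the 19 Wnt ligand genes in each library (x axis), stacked by gene, on a linear y axis from 0. WNT11, the lowest block of each bar, is at 129 to 135 FPKM in shNC and 27.5 to 35.4 FPKM in shScamp1 libraries, while the blocks of WNT9A and WNT7B are taller in the shScamp1 libraries.

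WNT7B (chr22:45920362-45977129, reverse strand), which can activate β-catenin signalling in epithelia, went up. The shNC libraries had 1.84, 1.53 and 1.77 FPKM and the shScamp1 libraries 4.09, 5.64 and 4.25 FPKM. All 3 shScamp1 values were above the highest control value (log2 fold change 1.38, standard error 0.15, adjusted p = 0.00270). WNT9A (chr1:227918656-227947898, reverse strand), a ligand with roles in joint and blood stem cell development, rose as well. Its values were 3.80, 4.03 and 3.60 FPKM in shNC and 7.59, 6.16 and 7.35 FPKM in shScamp1 libraries, again with no overlap (log2 fold change 0.86, adjusted p = 0.00397). WNT10B (chr12:48965340-48971763, reverse strand), a canonical ligand, moved in the opposite direction. It was at 3.00, 2.42 and 3.40 FPKM in shNC and at 1.74, 1.47 and 1.69 FPKM in shScamp1 libraries, on 53 to 138 reads (log2 fold change -0.80, adjusted p = 0.0182). The WNT10B call was lost without shNC replicate 1 (adjusted p = 0.0837), shNC replicate 3 (0.0753) or shScamp1 replicate 3 (0.0618).

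The other 3 ligands tested missed the threshold. WNT2B had a mean of 0.484 ± 0.0854 FPKM in shNC and 0.982 ± 0.142 FPKM in shScamp1 cells (SD, n = 3 each), with no overlap and an adjusted p of 0.0549. It also shares 21.2% of its exonic bases with ST7L on the opposite strand. WNT10A had a log2 fold change of -0.38 (95% confidence interval -0.67 to -0.09, adjusted p = 0.0865) and WNT3 of -0.37 (-0.80 to 0.05, adjusted p = 0.209). The following pairs of ligand genes are close neighbours in the genome, and in each pair only 1 gene was expressed above the filter. WNT10A lies 6129 bases from WNT6, which had at most 6 reads in a library, and WNT10B lies 6689 bases from WNT1, which had no read. WNT3 and WNT9B, which also had no read, are separated by 46 bases, and WNT9A lies 59152 bases from WNT3A, which had 1 read in all.

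Ligand processing genes fell in 2 of 3 cases. NOTUM (chr17:81952507-81961840, reverse strand) is a secreted enzyme that removes the lipid from Wnt proteins and so inactivates them, and it is itself a β-catenin target. It was at 5.12, 5.27 and 4.42 FPKM in shNC and at 1.88, 0.823 and 1.79 FPKM in shScamp1 libraries. The lowest value, on 34 reads, was in shScamp1 replicate 2, but the other 2 shScamp1 libraries were also below every control (log2 fold change -1.73, standard error 0.30, adjusted p = 0.0147). Without shScamp1 replicate 2 the log2 fold change was -1.38 (adjusted p = 0.000659). Without any 1 of the 3 shNC libraries the adjusted p was 0.0591 to 0.0706. WLS (chr1:68098473-68233120, reverse strand), which carries Wnt proteins to the cell surface, was lower by a small amount. Its mean was 14.6 ± 0.755 FPKM in shNC and 11.6 ± 0.658 FPKM in shScamp1 cells (n = 3 each, ± SD), with a log2 fold change of -0.33 and an adjusted p of 0.0368. When libraries were left out in turn, the WLS call held without shScamp1 replicate 2 (adjusted p = 0.0187), and leaving out any other library gave 0.0743 to 0.149. PORCN, the enzyme that attaches the lipid, had a log2 fold change of 0.10 (95% confidence interval -0.15 to 0.34, adjusted p = 0.563).

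Of the 12 receptor genes, 9 were tested and only FZD7 was called. FZD7 (chr2:202034587-202038445, forward strand), a Frizzled receptor linked to stem cells and gastric cancer growth, was at 23.0, 22.4 and 21.8 FPKM in shNC libraries. It was at 30.3, 34.7 and 32.7 FPKM in shScamp1 libraries. It rose with no overlap between groups (log2 fold change 0.53, standard error 0.07, adjusted p = 0.00666), and its share of the summed Frizzled FPKM was 36.8% to 37.7% in shNC and 47.0% to 48.0% in shScamp1 libraries. The coreceptors LRP5 (log2 fold change 0.19, 95% confidence interval -0.08 to 0.47) and LRP6 (-0.04, -0.37 to 0.30) were not called. The same was true of FZD6, next in abundance among the Frizzleds, at 20.2 ± 0.931 and 19.7 ± 1.04 FPKM (SD, n = 3 each). FZD1, FZD2, FZD3, FZD4 and FZD5 had log2 fold changes from -0.43 to -0.01 with adjusted p from 0.205 to 0.979. FZD4 shares 18.9% of its exonic bases with PRSS23 on the opposite strand, which was at 26.7 FPKM or more in every library against at most 1.36 FPKM for FZD4.

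Only 1 of the 9 secreted antagonists was expressed above the filter. DKK1 (chr10:52314296-52318042, forward strand), which blocks LRP5 and LRP6, was at 3.09, 3.05 and 2.38 FPKM in shNC and at 6.61, 4.14 and 6.32 FPKM in shScamp1 libraries. The lowest shScamp1 value, in replicate 2, was still above all controls, and DKK1 rose (log2 fold change 0.96, standard error 0.20, adjusted p = 0.0287). The adjusted p was 0.00262 without shScamp1 replicate 2 and between 0.0658 and 0.108 when any other library was left out. The remaining antagonists (SFRP1, SFRP2, SFRP4, SFRP5, DKK2, DKK3, DKK4 and WIF1) had 0 to 5 reads in every library.

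In the R-spondin module, 4 of 9 genes were tested and 2 fell. LGR6 (chr1:202193901-202319781, forward strand), an R-spondin receptor of epithelial stem cells, was at 16.5, 16.2 and 16.8 FPKM in shNC and at 7.86, 9.58 and 8.63 FPKM in shScamp1 libraries. The groups were well separated (log2 fold change -0.92, standard error 0.09, adjusted p = 0.00174). ZNRF3 (chr22:28883592-29057487, forward strand), a ubiquitin ligase that clears Frizzled receptors from the membrane, was at 30.6, 29.6 and 30.1 FPKM in shNC and at 17.7, 23.3 and 18.0 FPKM in shScamp1 libraries. Its fall (log2 fold change -0.62, adjusted p = 0.0179) was smallest in shScamp1 replicate 2, without which it was -0.75 (adjusted p = 0.000193). The call was lost without shNC replicate 1, 2 or 3 (adjusted p = 0.0758 to 0.0810) or shScamp1 replicate 3 (0.0697). RNF43, the paralogue with the same function, had a log2 fold change of -0.16 (adjusted p = 0.162). The same-strand gene AC004687.2 shares 57.6% of the exonic bases of RNF43 and was itself given 2 to 6 reads in a library. On the opposite strand, TSPOAP1-AS1 shares 20.3% of them and had 46 to 58 reads in a library. LGR4 was at 2.72 ± 0.236 and 2.20 ± 0.388 FPKM (SD, n = 3 each) with an adjusted p of 0.225. LGR5 had 7 reads over all 6 libraries, and the R-spondin ligands RSPO1 to RSPO4 had at most 5 reads in a library.

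All 6 cytoplasmic regulators were tested, and AXIN2, NKD1 and NKD2 fell while AXIN1, APC and CTNNB1 were not called. AXIN2 (chr17:65528563-65561647, reverse strand), the inducible Axin scaffold and a standard readout of β-catenin activity, was abundant at 91.6, 93.9 and 93.0 FPKM in shNC libraries. It was at 58.5, 48.2 and 57.8 FPKM in shScamp1 libraries. The highest shScamp1 value was thus below the lowest control by a wide margin (log2 fold change -0.76, standard error 0.09, adjusted p = 0.00409). NKD2 (chr5:1008829-1038943, forward strand), which binds Dishevelled and restrains Wnt signalling, was at 6.95, 7.97 and 8.39 FPKM in shNC and at 3.09, 2.58 and 2.68 FPKM in shScamp1 libraries. It had the larger change of the pair of Naked genes (log2 fold change -1.45, standard error 0.11, adjusted p = 0.000859). Its relative NKD1 (chr16:50548330-50649249, forward strand) was at 4.44, 4.67 and 4.66 FPKM in shNC and at 2.34, 3.49 and 2.40 FPKM in shScamp1 libraries. As for ZNRF3, the fall of NKD1 (log2 fold change -0.74, adjusted p = 0.0294) was smallest in shScamp1 replicate 2, and without this library it was -0.92 (adjusted p = 0.000633). Leaving out any other library gave an adjusted p of 0.0652 to 0.114 for NKD1.

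CTNNB1, which encodes β-catenin itself, was at 16.4, 15.6 and 16.7 FPKM in shNC and at 15.7, 26.4 and 17.1 FPKM in shScamp1 libraries. Only shScamp1 replicate 2 stood well above the rest. The log2 fold change was 0.24 (95% confidence interval -0.22 to 0.71, adjusted p = 0.436) with all libraries and 0.01 (adjusted p = 0.877) without it. In APC, shScamp1 replicate 2 was again the highest library, but all 3 shScamp1 values were above the controls, at 4.03, 4.20 and 3.54 FPKM in shNC and 4.47, 7.86 and 4.71 FPKM in shScamp1 libraries (log2 fold change 0.48, adjusted p = 0.197). Without shScamp1 replicate 2 the log2 fold change of APC was 0.23 (adjusted p = 0.122). AXIN1, the constitutive Axin, was at 14.5 ± 1.14 and 11.7 ± 0.411 FPKM (SD, n = 3 each) with no overlap, and narrowly missed the threshold (log2 fold change -0.30, 95% confidence interval -0.49 to -0.11, adjusted p = 0.0555).

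Among the nuclear factors, SP5 and LEF1 fell and the TCF7 genes were not called. SP5 (chr2:170715351-170718078, forward strand) is a zinc finger factor and a direct β-catenin target in many cell types. It was at 16.1, 17.1 and 17.4 FPKM in shNC and at 7.28, 4.65 and 6.20 FPKM in shScamp1 libraries. All shScamp1 values were far below the lowest control (log2 fold change -1.49, standard error 0.16, adjusted p = 0.00282). LEF1 (chr4:108047545-108168956, reverse strand), a DNA-binding partner of β-catenin that is also induced by the pathway, was low in these cells, at 1.93, 2.04 and 2.05 FPKM in shNC and 0.792, 0.572 and 0.841 FPKM in shScamp1 libraries. The groups did not overlap on 42 to 182 reads per library (log2 fold change -1.35, standard error 0.17, adjusted p = 0.00511). TCF7 was at 6.49 ± 0.444 and 8.42 ± 0.773 FPKM in shNC and shScamp1 cells (n = 3, ± SD), with a log2 fold change of 0.37 (95% confidence interval 0.14 to 0.60, adjusted p = 0.0508). TCF7L2, the most studied TCF in the gut, was at 6.38 ± 0.0735 and 6.93 ± 0.166 FPKM (log2 fold change 0.12, adjusted p = 0.251). Neither gene's libraries overlapped between the groups. TCF7L1, with only 5 to 17 reads in each library, stayed below the filter.

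**Figure D3:**
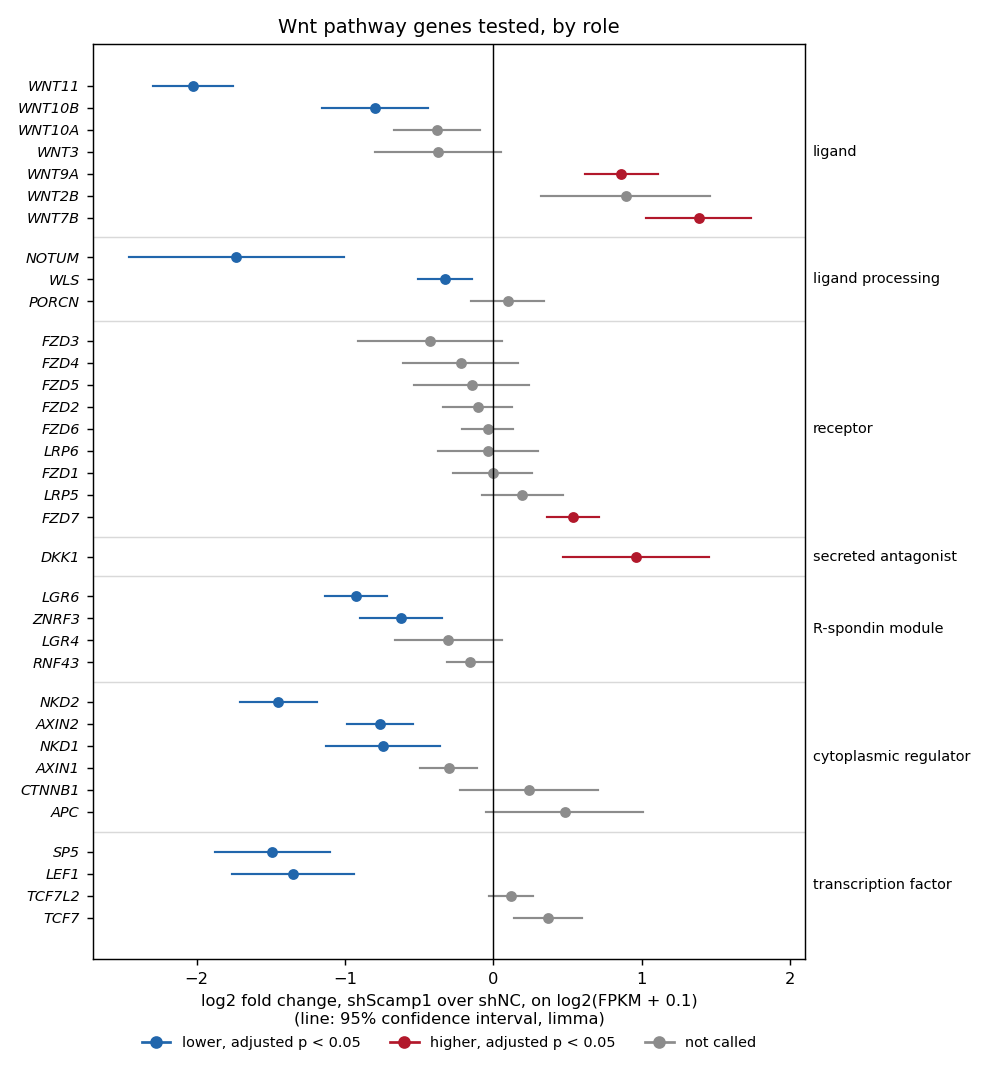
Log2 fold change of shScamp1 over shNC (x axis) for the 34 Wnt pathway genes tested, grouped by role and named on the y axis; points are limma estimates, lines their 95% confidence intervals, blue and red mark genes called lower and higher at an adjusted p under 0.05, grey the rest. Blue points stand in every role except the receptors and the secreted antagonist, from WNT11 at -2.02 to WLS at -0.33.

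Since TCF and LEF factors bind a shared short core, the promoters of the genes were searched for its forms CTTTGAA (the first heptamer), CTTTGAT (the second), CTTTGTA (the third) and CTTTGTT (the fourth) on both strands. RefSeq promoter windows on GRCh38.p14 (250 bases before and 50 bases after the start site) were matched by symbol for 44 of the 63 genes, with 56 windows. At least 1 of these heptamers was present in 5 of the 56 windows (8.93%), against 13.8% of all 35116 windows. Of the 56 windows, 24 belong to genes below the filter, and none of these held a heptamer. A heptamer was in 1 of 8 windows of genes called lower and 1 of 2 windows of genes called higher. Among genes tested and not called it was in 3 of 22 windows (13.6%). SP5 had the most, with 3 (starting 148, 109 and 84 bases before the start site), a number reached by 0.179% of all windows. DKK1 had 2. The other called genes with a window (WLS, LGR6, LEF1, NKD2 and WNT9A) had none, and TCF7, TCF7L2 and WNT3 had 1 each. The called genes WNT11, WNT10B, NOTUM, ZNRF3, AXIN2, NKD1, WNT7B and FZD7 had no window and were not searched. The windows of SP5, which fell, and DKK1, which rose, are given 5′ to 3′ on the strand of the gene, with the heptamers or their reverse complements in capitals; SP5 is at chr2:170715087-170715386 and DKK1 at chr10:52314031-52314330.
SP5: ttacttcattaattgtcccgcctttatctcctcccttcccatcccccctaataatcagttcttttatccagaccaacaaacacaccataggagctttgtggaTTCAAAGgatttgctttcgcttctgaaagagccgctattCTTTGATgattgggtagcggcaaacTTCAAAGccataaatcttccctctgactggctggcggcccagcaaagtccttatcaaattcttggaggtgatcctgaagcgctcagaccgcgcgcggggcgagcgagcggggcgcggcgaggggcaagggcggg
DKK1: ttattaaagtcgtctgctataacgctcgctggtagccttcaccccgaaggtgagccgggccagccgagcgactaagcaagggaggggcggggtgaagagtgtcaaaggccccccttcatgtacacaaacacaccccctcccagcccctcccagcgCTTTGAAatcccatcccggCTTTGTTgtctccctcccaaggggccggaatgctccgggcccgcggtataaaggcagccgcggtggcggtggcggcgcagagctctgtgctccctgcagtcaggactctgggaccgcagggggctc
A match is a string of letters in this window only, and factor binding was not measured here.

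The remaining 29 genes had a mean of at most 0.165 FPKM and no more than 17 reads in any library, and were not tested in the main fit. Of these, 9 had no read in any library (WNT1, WNT8A, WNT9B, FZD8, FZD10, SFRP1, SFRP2, DKK2 and RSPO3), which allows up to 3 reads in the 89908386 reads of all libraries together. The other 20 were WNT2, WNT3A, WNT4, WNT5A, WNT5B, WNT6, WNT7A, WNT8B, WNT16, FZD9, SFRP4, SFRP5, DKK3, DKK4, WIF1, RSPO1, RSPO2, RSPO4, LGR5 and TCF7L1. Levels were thus low in both groups at this depth, and differences between such levels were not judged from the main fit.

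Other genes of the pathway were read from 4 lists, of which 132 genes were in the table and 100 were tested. Across the lists 11 were higher and 12 lower (23.0%), against 14.0% of all genes tested. The list genes are all protein-coding, and the separate fit of protein-coding genes only called 22.8% of its genes. That fit had its own adjustment, and the list genes it called are not given here. The 23.0% comes from the main fit, so the 2 shares are not like for like. Among extracellular and membrane modulators, 3 of 17 rose and 4 fell (41.2%). NDP, which encodes the Frizzled ligand norrin, was at 1.41, 1.49 and 1.61 FPKM in shNC and 4.37, 5.23 and 5.32 FPKM in shScamp1 libraries, so that it rose with no overlap (log2 fold change 1.66, adjusted p = 0.000651). SULF2, an enzyme that trims heparan sulfate and can release Wnt proteins, rose by 1.11 on the log2 scale (adjusted p = 0.000617). LRP4, a binding partner of Wnt antagonists, fell by 1.30 (adjusted p = 0.0206), and KREMEN2, a receptor through which DKK1 acts, fell by 1.04 (adjusted p = 0.0408). KREMEN1 (log2 fold change -0.83) and BAMBI (-0.88), a β-catenin-induced pseudoreceptor at 146 FPKM in shNC and 79.7 FPKM in shScamp1 cells, fell too; these 2 were singled out after their values were seen.

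Among cytoplasmic and nuclear components, 3 of 35 rose and 2 fell, 14.3%, close to the share among all genes. CTNNBIP1, an inhibitor that keeps β-catenin from TCF factors, was at 4.67, 5.59 and 4.81 FPKM in shNC and at 10.4 FPKM in each shScamp1 library (log2 fold change 1.04, adjusted p = 0.00120). TNKS2, a tankyrase that marks Axin for degradation, rose by 0.85 (adjusted p = 0.00991). Of the 5 Groucho family genes tested, which encode corepressors or a relative of them, TLE2 was lower (log2 fold change -1.59, adjusted p = 0.00603) and TLE4 higher (0.46, adjusted p = 0.0425). TLE1 was also lower (-0.35, adjusted p = 0.0160), and TLE3 (0.36, adjusted p = 0.157) and AES (0.13, adjusted p = 0.579) were not called; these 3 were named after their values were seen. In the non-canonical list 2 of 24 rose, DAAM1 (0.83) and CAMK2G (0.59), and 2 fell, the Wnt receptor ROR1 (-1.04) and PRICKLE3 (-0.36), with adjusted p from 0.00524 to 0.0250. The share called in this list, 16.7%, was near the 14.0% of all genes tested. Among transcripts often cited as β-catenin targets, 3 of 24 rose and 4 fell (29.2%). The largest changes were in EPHB3 (1.19, adjusted p = 0.00223), FGF20 (-1.15, adjusted p = 0.00107), FGF18 (-0.97, adjusted p = 0.0480) and MET (0.66, adjusted p = 0.0421). MYC (-0.47, adjusted p = 0.0861) and CCND1 (0.36, adjusted p = 0.165), looked up after the values were seen, were not called. Without shScamp1 replicate 2, 45 of the 100 genes were called, while the share called among all genes was 27.8%.

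**Figure D4:**
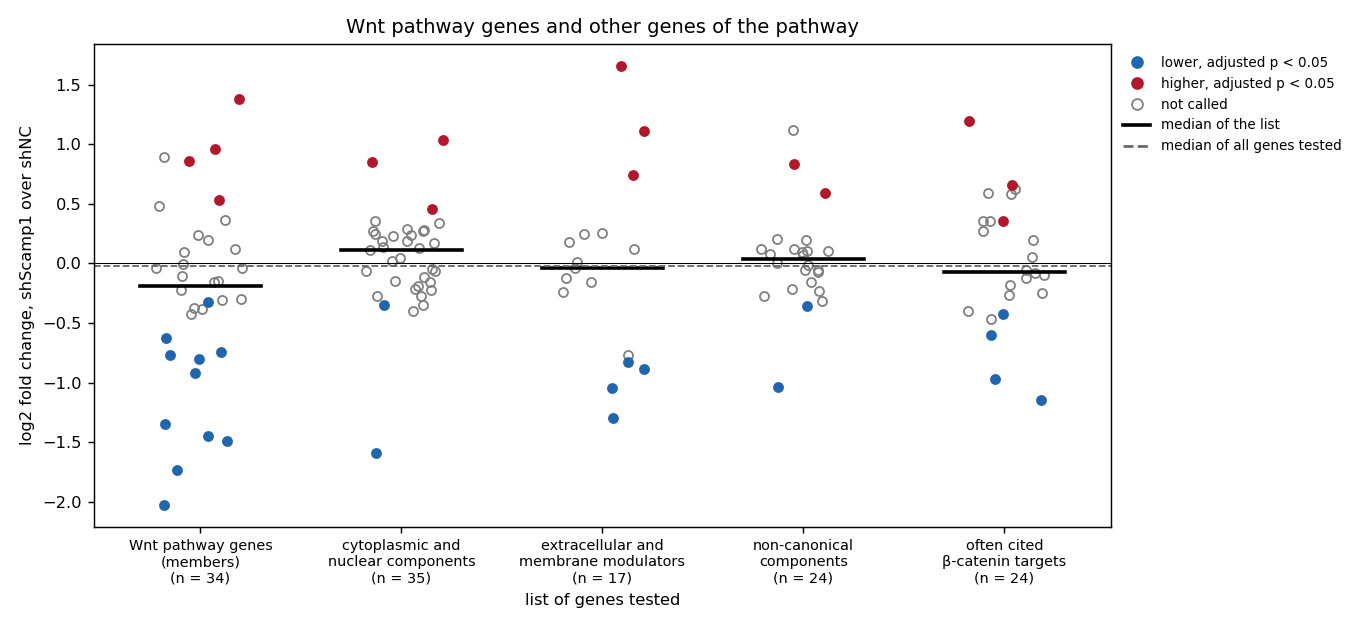
Log2 fold change (y axis) of each tested gene in the Wnt pathway genes and in the 4 lists of other pathway genes (x axis); filled points are called at an adjusted p under 0.05, black bars are list medians and the dashed line is the median of all genes tested. The median is -0.19 in the first column and between -0.07 and 0.11 in the other 4.

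Genes on the opposite strand overlap other called genes too. ZNRF3-AS1, GNG12-AS1 (at WLS), PRKG1-AS1 (at DKK1), AC007608.1 and AC007608.2 (at NKD1) and LEF1-AS1 had at most 18 reads in a library. AXIN2 shares 25.2% of its exonic bases with the same-strand gene AC004805.1, which was at 0.668 FPKM or less.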

How the data were processed

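RNA-seq was available for 6 libraries of NCI-N87 cells. Values were deposited by the authors as FPKM. The submitters' processing notes name HISAT2 2.0.5, featureCounts 1.5.0-p3, DESeq2 1.20.0 and hg38; the strand setting and annotation release are not given in the sources used here, and all 58735 gene coordinates equalled GENCODE 29. FPKM times gene length was a whole multiple of 1 step per library (within 0.01 read) for 100% of values above 0, which gave the reads per gene and a total of 14311769 to 15988700 per library. The deposited values already held a scaling between libraries (size factors 0.905 to 1.10), so none was added.

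Levels were compared in R 4.3.3 with limma 3.58.1 (lmFit, eBayes with a mean-variance trend) on log2(FPKM + 0.1), two-sided, over the 15556 genes that averaged 0.5 FPKM or more, with Benjamini-Hochberg adjustment over all of them. This scale understates the change of low genes. Tables and plots used Python 3.11.15, pandas 2.3.3, numpy 2.4.6 and matplotlib 3.10.9. The genes, lists and tests were chosen with earlier results of these data known. Every tested gene of the rule is named, as are up to 4 called genes per other list with the largest absolute change, SCAMP1 and opposite-strand genes. 16 alternatives were tried. Limits from 0 reads cover counting error only. All columns with values per library were used.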

Additional observations from a re-analysis of the deposited data

How the results depend on the processing

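Of the 15 called genes, 9 were called in every one of the 16 alternatives in which they were tested (WNT11, AXIN2, FZD7, LGR6, SP5, WNT9A, NKD2, WNT7B and LEF1, the last below a filter of 2 FPKM); ZNRF3, WLS, DKK1, NKD1, NOTUM and WNT10B were not called in at least 1. Over the fits that each left out 1 library, the called genes numbered 9 to 20, those lower 6 to 15, those higher 3 to 5, those also past the fold change threshold 5 to 7, and the other pathway genes called 9 to 45. The share called among all genes at an adjusted p under 0.05 was 5.19% to 27.8% in the same fits. Past the fold change threshold as well, the share among all genes was not counted in these fits, and was 3.16% with all libraries. SCAMP1 had a log2 fold change of -2.90 to -2.65 in the fits that each left out 1 library. With the replicate number as a replicate block, although same-numbered libraries did not deviate together (correlations -0.04, 0.03 and 0.07), 11 genes were called (3 higher and 8 lower) and 13 other pathway genes, while the share called among all genes was 6.16% against 14.0%. The block lost the calls of ZNRF3, WLS, DKK1 and NKD1 (adjusted p = 0.0551 to 0.0862). Sign changes were limited to FZD1 (log2 fold change -0.050 to 0.078 over these fits) and LRP6 (-0.188 to 0.082), neither called, and the cause was not tested. Rescaling to equal totals of reads moved the share of higher genes among all calls from 63.0% to 47.3%. Among the Wnt genes it gave 4 higher and 14 lower (15.5% of all genes called). Voom on the recovered reads gave 6 higher and 13 lower (17.7% of all genes called). With no filter on low values, 54 of the Wnt genes were tested, of which 3 were higher and 9 lower (4.81% of all genes called). Read numbers did not separate the calls that were kept from those lost: LEF1 (42 to 182 reads in a library) was kept, and NOTUM (34 to 265) and ZNRF3 (1804 to 3437) were lost in at least 1 fit. The filter on low values left the 29 genes below it, at no more than 17 reads in a library, without a test in the main fit.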
